A study of Mus musculus with 6 samples.

Results

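The genes described here encode subunits of the mitochondrial oxidative phosphorylation machinery. They were taken by symbol alone, and no measured value enters the rule: nuclear genes whose symbol begins with Nduf followed by a, b, c, s or v and a digit, or with Uqcr, Cox4 to Cox8 or Atp5, and genes whose symbol begins with mt-. The rule was set with earlier results of these data known. Of 31054 genes in the deposited feature lists, 93 met the rule. The 80 nuclear members comprised 35 genes of complex I, 8 of complex III, 20 of complex IV and 17 of the ATP synthase. The 13 mitochondrial members are the protein-coding genes of the mitochondrial genome, of which 7 encode subunits of complex I, 1 of complex III, 3 of complex IV and 2 of the ATP synthase. Ndufa4 and its homologue Ndufa4l2 were placed with complex IV, where the Ndufa4 protein is found, and Cox7a2l was kept with complex IV by its name. Atp5o was listed under 2 gene identifiers whose annotated spans overlap, so reads could be split between them.

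Oxidative phosphorylation is carried out by protein complexes in the inner mitochondrial membrane. Complex I takes electrons from NADH, complex III passes them to cytochrome c, and complex IV hands them to oxygen, while the ATP synthase uses the resulting proton gradient to make ATP. Some core subunits of complexes I, III and IV and of the ATP synthase are encoded in mitochondrial DNA, which is transcribed as long polycistronic RNAs. The other subunits are made from nuclear genes and imported. Several complex IV subunits exist as isoform pairs, of which the second member is restricted to particular tissues. The pair partner Cox4i2 is known as the lung isoform of Cox4i1, and Ndufa4l2 is a known target of hypoxia-inducible factor.

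The libraries came from lungs of 6 male C57BL/6 mice aged 21 months, 1 library per mouse. The 3 mice of the group labelled p16-DTR carried p16-CreERT2 together with R26-LSL-DTR, an allele that expresses the diphtheria toxin receptor once Cre has removed a stop cassette. The 3 control mice carried p16-CreERT2 without the receptor allele. All 6 mice received tamoxifen for 5 days and, 2 weeks later, diphtheria toxin for 5 days, and lungs were taken after 2 weeks of recovery. The driver is the p16 promoter, so the receptor is made only in cells that used it when tamoxifen was given. The design asks what changes in the aged lung once cells with high p16 expression are removed. After enzymatic digestion, 20000 sorted CD45- cells and 9000 sorted CD45+ cells of each lung were mixed for a single-cell library of RNA 3′ ends, so the ratio of immune to other cells was set by the sort.

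Each library held 13482 to 17332 cell barcodes and 254200305 to 344421685 UMIs, a UMI being 1 captured RNA molecule. A total of 85737 cells was retained after removal of cells with over 15% mitochondrial UMIs and of cells that carried markers of more than 1 lineage, and any pair of libraries shared 59 to 94 barcode sequences. Cells over the 15% limit made up 1.86%, 1.68% and 2.40% of the p16-DTR-labelled libraries and 1.23%, 1.51% and 1.46% of the controls (exact permutation test, two-sided p = 0.1, the smallest that 3 against 3 allows). Levels are given as CPM, the UMIs of a gene in every 1000000 UMIs of the same cells. Cdkn2a, the gene of p16, had 7.12, 8.49 and 7.19 CPM in the p16-DTR-labelled libraries and 1.26, 2.66 and 2.84 in the controls, which is higher where the labels call for removal of p16-high cells (log2 difference 1.80 ± 0.30 SE, edgeR adjusted p = 0.144). Directions below are therefore given for the p16-DTR-labelled libraries. Summed UMIs of dissociation stress genes ranged from 10033 to 11378 CPM in those libraries and from 10664 to 12884 in the controls, and those of cytosolic ribosomal proteins from 59312 to 70589 and from 53863 to 61443. Their part in the results below was not tested.

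Cells were assigned to types by gates on marker genes, none of which was a member, and 18 types with at least 50 cells in every library were tested. The remaining 11668 ungated cells (13.6% of those retained) were shallow, with a median of 2931 UMIs against 18184 in gated cells. Levels within a type are mean ± SD over the 6 mice. They count molecules by their 3′ ends and were not divided by transcript length. A level in CPM says how much of a cell type's RNA the genes take up, and says nothing of RNA per cell.

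The share of RNA given to nuclear oxidative phosphorylation genes differed over 3-fold between cell types. Classical monocytes stood highest at 13175 ± 633 CPM, and their 6 libraries lay above all libraries of the next type. Ciliated cells (11128 ± 446), natural killer cells (10645 ± 277), CD4 T cells (10224 ± 385), alveolar type 2 cells (10101 ± 337) and CD8 T cells (9984 ± 375) followed, and each overlapped its neighbour in that order. The bottom of the order was separated: general capillary endothelial cells at 6906 ± 204, alveolar fibroblasts at 6075 ± 305 and neutrophils at 4187 ± 261 did not overlap each other. The 13 mitochondrial genes followed another order. Alveolar type 2 cells, the surfactant-secreting cells of the alveolus, had 36593 ± 2813 CPM and ciliated cells 29760 ± 2993, and these 2 types overlapped each other. B cells came next at 22811 ± 886, and the lowest level was again in neutrophils at 5438 ± 1224.

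**Figure D1:**
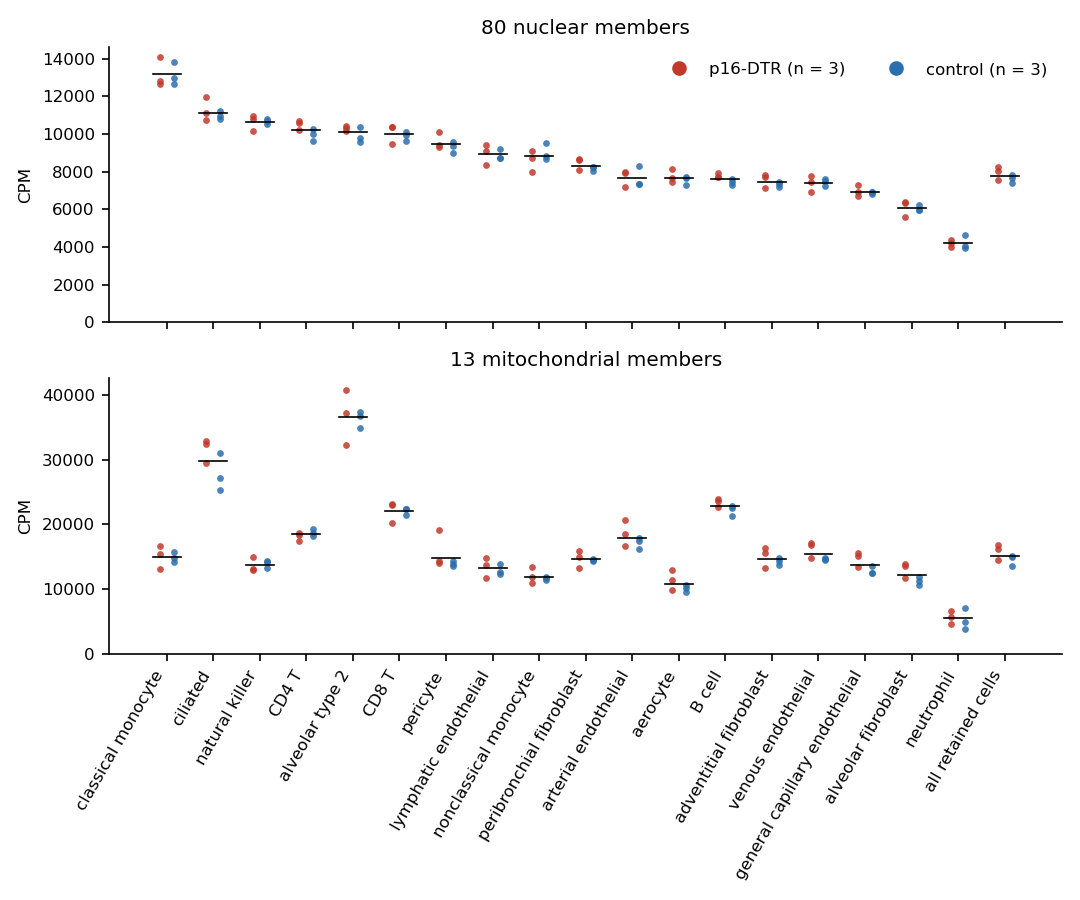
Summed CPM of the 80 nuclear members (top) and the 13 mitochondrial members (bottom) in 18 gated cell types and in all retained cells, 1 point per mouse, 3 labelled p16-DTR and 3 control, with a bar at the mean of the 6. Classical monocytes lead the nuclear sum and alveolar type 2 cells the mitochondrial sum, and neutrophils are lowest in both.

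Nuclear and mitochondrial levels were not in a fixed proportion. Mitochondrial members gave 3.63 ± 0.33 UMIs for each UMI of a nuclear member in alveolar type 2 cells, 3.00 ± 0.11 in B cells and 2.68 ± 0.27 in ciliated cells. Classical monocytes had the lowest ratio, 1.14 ± 0.09, although their nuclear sum was the highest. B cells showed the opposite arrangement, with a nuclear sum of 7606 ± 226 that was below the median of the other types and a mitochondrial sum near the top.

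The 78 nuclear members that passed the filter on low counts were then tested in each type against the mean of the other 17 types within mice. Of 1404 tests, 1125 were called at an edgeR adjusted p below 0.05, 543 higher (38.7%) and 582 lower (41.5%), where 37.1% of all tests were higher and 31.6% lower. Most genes differ between lung cell types, so each count is read beside the share of all 17074 genes called. In classical monocytes 70 nuclear members were higher and 3 lower, where 37.9% of all genes were higher and 35.3% lower. In alveolar type 2 cells 72 were higher and 2 lower, with a background of 36.5% and 33.4%, and all 13 mitochondrial members were higher. Ciliated cells had 47 higher and 12 lower (background 39.4% and 38.3%), and CD8 T cells 51 and 12 (38.3% and 32.7%). Fewer members were higher than lower in alveolar fibroblasts, with 14 and 55 (background 49.1% and 27.6%), and in general capillary endothelial cells, with 12 and 52 (44.8% and 25.4%).

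These counts depend on how libraries are scaled. Trimmed-mean (TMM) scaling put the median of all genes in neutrophils at -0.53 on the log2 scale, and scaling by library size alone put it at -1.43. With library size alone the total became 621 higher and 502 lower, where 39.2% and 30.3% of all tests were. With library size alone, shares of all genes included, the majority stayed on its side in classical monocytes (69 higher, 7 lower, background 31.1% and 43%), alveolar type 2 cells (60 and 10, 27.7% and 45.2%), ciliated cells (62 and 6, 43.5% and 33.8%), CD8 T cells (51 and 12, 37.9% and 33%), alveolar fibroblasts (16 and 55, 49.6% and 27.2%) and general capillary endothelial cells (14 and 47, 46.8% and 24.1%). It turned in 3 types, given with the shares of all genes under the same scaling as each count. Lymphatic endothelial cells went from 12 higher and 37 lower (32% and 28.1%) to 47 and 11 (49% and 14.9%). Peribronchial fibroblasts went from 14 and 41 (35.3% and 30.5%) to 29 and 17 (43% and 21.3%). Aerocytes went from 23 and 33 (38.8% and 29.6%) to 31 and 30 (41.8% and 27.4%), so no direction is given for those 3 types.

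Neutrophils had the lowest level of 54 of the 80 nuclear genes. In this gate 47 nuclear members were lower and 20 higher with TMM scaling (background 42.4% and 30.5%), and 70 lower and 3 higher with library size alone (59% and 18.6%). The median of the nuclear members was -0.43 with TMM scaling and -1.38 with library size alone, near the -0.53 and -1.43 of all genes. All 13 mitochondrial members were lower under both scalings. The nuclear subunits of complex I summed to 1202 ± 82 CPM in neutrophils, where the median of the other types was 2736.

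The subunits differed widely in neutrophils, with TMM medians of -0.77 for nuclear complex I and 0.17 for complex IV. Ndufa5, an accessory subunit of the matrix arm of complex I, had 2.14, 3.16 and 1.82 CPM in neutrophils of the p16-DTR-labelled mice and 3.23, 2.99 and 3.00 in the controls, against a median of 61.1 over the types (log2 -3.54 ± 0.09 SE with TMM scaling and -4.51 with library size alone). Ndufc2, an accessory subunit of the membrane arm, had 5.41, 3.58 and 6.37 against 8.07, 7.47 and 5.71 (log2 -3.21 ± 0.08 and -4.18). Those 2 genes were low in every mouse, and the groups overlapped for each. The same held for the membrane-arm subunits Ndufa11 at 6.03 ± 1.09 (log2 -2.84 ± 0.08 and -3.80) and Ndufc1 at 7.58 ± 1.36 (log2 -2.16 ± 0.07 and -3.13). The Atp5g genes, which encode the same proton-carrying c subunit of the ATP synthase from 3 loci, fell together: Atp5g1 stood at 9.15 ± 1.72, Atp5g2 at 22.2 ± 2.4 and Atp5g3 at 14.1 ± 1.3 (log2 -2.37, -2.11 and -1.56 with TMM scaling). Atp5s, a factor named for coupling of the ATP synthase, had 0.65 ± 0.30.

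Cox8a and Atp5l were not lower in neutrophils under either scaling. Cox8a, a small structural subunit of complex IV, had 343.5, 316.8 and 320.4 CPM in neutrophils of the p16-DTR-labelled mice and 294.2, 357.2 and 292.9 in the controls (log2 1.14 with TMM scaling and 0.19 with library size alone). Atp5l, the g subunit of the ATP synthase, had 259 ± 18 (log2 1.31 and 0.36) and was named after its values were seen. Cox4i1, the general form of subunit 4 of complex IV, had 222 ± 21, and its difference changed sign with the scaling, from 0.36 to -0.58. The same change of sign occurred for Ndufa7, a complex I accessory subunit (0.73 and -0.21), Cox6a1 (0.22 and -0.72), Cox6b1 (0.51 and -0.44), Cox7a2 (0.11 and -0.83) and Cox7a2l (0.31 and -0.64). The spread of levels between Ndufa5 or Ndufc2 and Cox8a in the same cells does not rest on the scaling. Neutrophils were also the shallowest tested type, with a median of 9396 UMIs per cell in the p16-DTR-labelled libraries and 8972 in the controls. Of 17 dissociation stress genes 11 were higher and 4 lower in neutrophils (median log2 1.59 with TMM scaling). Of 100 cytosolic ribosomal protein genes 13 were higher and 80 lower (median -0.88). The part of these quality signs in the neutrophil levels was not tested.

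**Figure D2:**
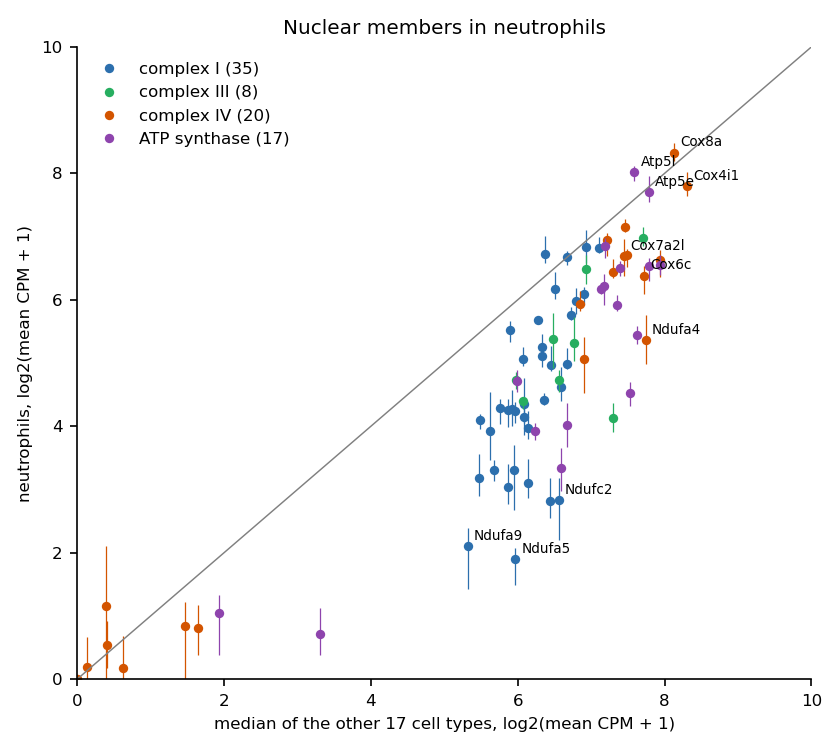
Mean level of each nuclear member in neutrophils (vertical axis, with a line from the lowest to the highest of 6 mice) against the median of its means in the other 17 cell types (horizontal axis), both as log2(CPM + 1), coloured by complex, with the line of equality. Most members lie below the line, Ndufa5 and Ndufc2 far below it, and Cox8a and Atp5l on or above it.

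Pericytes, the mural cells of capillaries, had the highest levels of the complex IV isoforms Cox4i2 and Ndufa4l2 among the 18 tested types. Cox4i2 (chr2:152754173-152765037, GRCm38) had 1950, 1753 and 1735 CPM in pericytes of the p16-DTR-labelled mice and 1864, 1966 and 1639 in those of the controls. The next highest tested type, peribronchial fibroblasts, had 6.08 ± 1.89. Ndufa4l2 (chr10:127514967-127517154) had 964.3, 911.6 and 774.8 against 911.4, 956.1 and 890.0, and the next tested type, adventitial fibroblasts, had 19.7 ± 3.9. All 6 mice showed both genes at these levels, and the groups overlapped for each. The tests against the other types gave edgeR adjusted p of 7.96e-113 for Cox4i2 and 2.38e-99 for Ndufa4l2. The p of such tests rests on the spread over all sums per library and type, and only 6 mice were sampled. No fitted fold is given, because several types were at or near 0 and all 6 natural killer sums of Ndufa4l2 were 0.

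Their partners moved in different ways in the same cells. Ndufa4 had 13.6, 6.39 and 12.2 CPM in pericytes of the p16-DTR-labelled mice and 6.00, 7.32 and 14.7 in the controls, against a median of 210.5 over the types (log2 -4.51 ± 0.09 SE, adjusted p = 3.42e-66, and -4.22 with library size alone). Cox4i1 fell less, to 219 ± 9 (log2 -0.89 ± 0.04). As a result Ndufa4l2 made up 98.9 ± 0.5% of the UMIs of Ndufa4l2 and Ndufa4, and Cox4i2 89.2 ± 0.5% of those of Cox4i2 and Cox4i1. Complex IV accounted for 45.4 ± 0.8% of nuclear member UMIs in pericytes, the highest share of any type. Without Cox4i2 and Ndufa4l2 the nuclear sum of pericytes, 9449 ± 362, came to 6729 CPM. By test 9 nuclear members were higher in pericytes and 57 lower (background 30.6% and 31.6%), and 21 and 40 with library size alone (41.6% and 20.8%).

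The 2 isoforms were found in the same cells. Of 570 pericytes, 566 had at least 1 UMI of Cox4i2, 563 had Ndufa4l2 and 562 had both, while 52 (9.12%) had Ndufa4. In B cells, taken as a type that should lack both genes, 25 of 4891 cells had Cox4i2 (0.51%), 18 had Ndufa4l2 (0.37%) and 4 had both, at median depths of 13797 and 12670.5 UMIs in the 2 groups against 18099 and 16174 in pericytes. Thinned to 5000 UMIs per cell, the shares in pericytes were 97.8% for Cox4i2, 96.0% for Ndufa4l2 and 3.66% for Ndufa4. Smooth muscle cells, a neighbouring mural type with too few cells per library to be tested, were mixed: of 372 cells, 133 had Cox4i2, 106 had Ndufa4l2, 62 had both and 338 had Ndufa4. Adventitial fibroblasts had Ndufa4l2 in 668 of 2576 cells and Cox4i2 in 75.

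**Figure D3:**
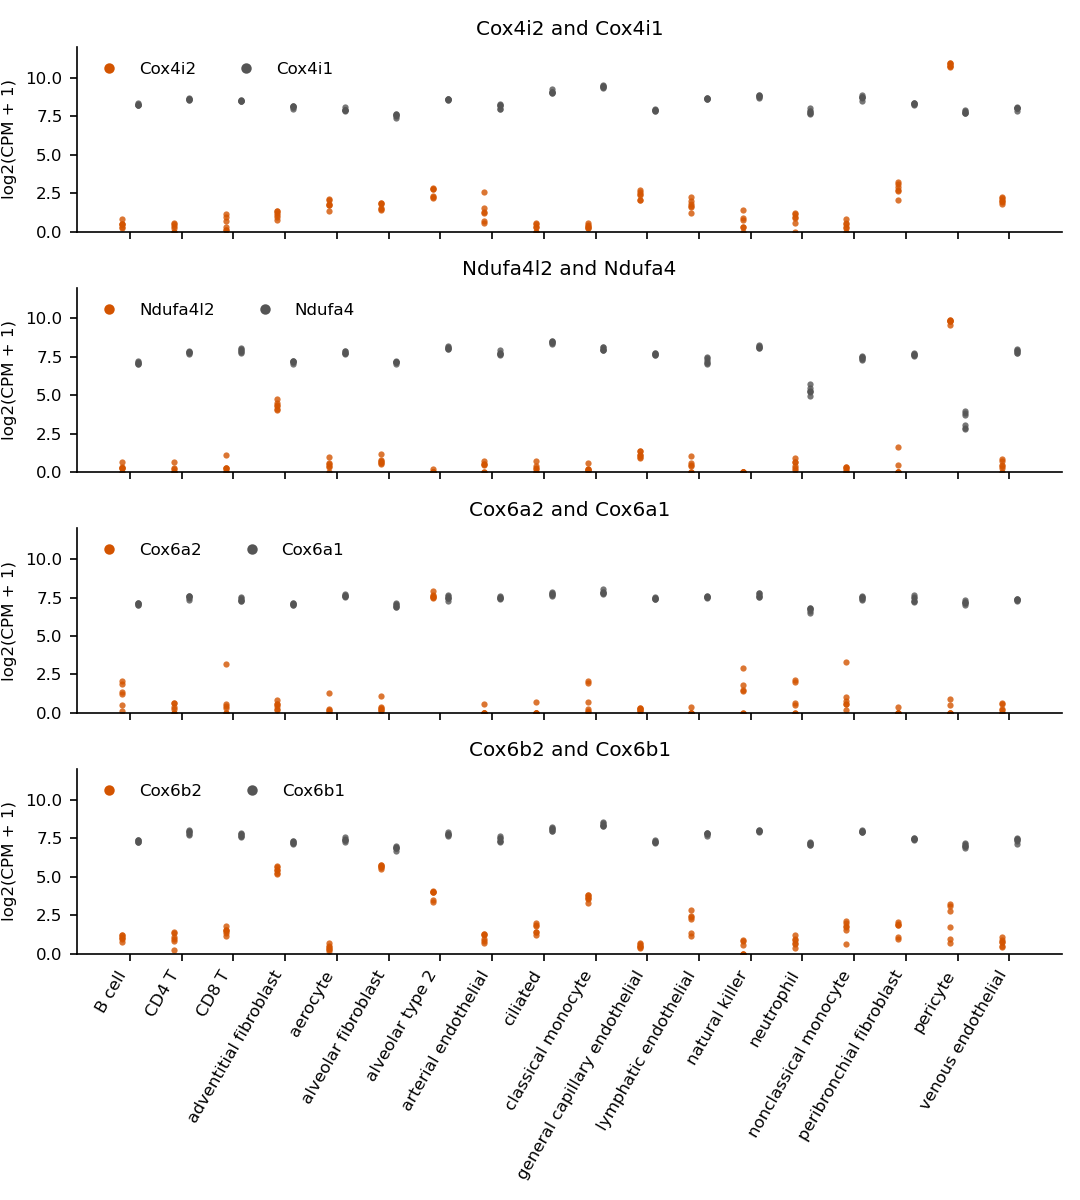
Levels of 4 tissue-restricted complex IV isoforms (orange) and their general partners (grey) in 18 gated cell types, as log2(CPM + 1), 1 point per mouse (n = 6). Pericytes lie highest for Cox4i2 and Ndufa4l2 and lowest for Ndufa4, where neutrophils are next lowest, alveolar type 2 cells stand out for Cox6a2, and both fibroblast types of the alveolus and adventitia for Cox6b2.

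Alveolar type 2 cells expressed Cox6a2, the isoform of subunit 6A known from heart and skeletal muscle. It had 243.4, 185.4 and 200.9 CPM in the p16-DTR-labelled mice and 187.0, 194.8 and 178.4 in the controls. The highest level in any other tested type was 2.12 ± 2.46, in natural killer cells, so the 2 types did not overlap, and the test against the other types gave an edgeR adjusted p of 1.25e-63. At least 1 UMI was found in 667 of 762 alveolar type 2 cells and in 20 of 4891 B cells. Its partner Cox6a1 was not reduced there: it had 178 ± 18 CPM (log2 0.42 against the other types, and 0.10 with library size alone), and Cox6a2 supplied 52.6 ± 3.5% of the UMIs of the pair.

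Cox6b2, known as the testis isoform of subunit 6B, was highest in fibroblasts. Alveolar fibroblasts had 48.9, 51.9 and 49.9 CPM in the p16-DTR-labelled mice and 44.6, 52.1 and 49.4 in the controls, and adventitial fibroblasts had 42.3 ± 6.5. The 2 fibroblast types overlapped each other, while peribronchial fibroblasts were not among the high types. Its share of the pair with Cox6b1 was 29.9 ± 2.1% in alveolar and 22.1 ± 2.8% in adventitial fibroblasts. Cox8b, the muscle isoform of subunit 8, reached only 10.1 ± 1.6 CPM in alveolar fibroblasts and 10.0 ± 2.4 in lymphatic endothelial cells. Cox7a1, the muscle isoform of subunit 7A, was at most 4.32 ± 1.21, in ciliated cells, and Cox8c had 6 UMIs in all retained cells and passed no filter.

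The 3 genes for the c subunit of the ATP synthase were used in different proportions. Atp5g2 supplied 62.5 ± 1.1% of Atp5g UMIs in B cells and 60.3 ± 1.8% in CD8 T cells, and 41.0 ± 0.9% in alveolar fibroblasts. Atp5g1 ran the other way, from 19.9 ± 0.5% in B cells to 34.5 ± 1.3% in alveolar fibroblasts. The 2 types did not overlap for either gene.

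Outside the isoform pairs, Ndufc2 varied most over the types. It had 397 ± 18 CPM in ciliated cells (log2 2.04 ± 0.04 against the other types) and 263 ± 43 in lymphatic endothelial cells, against 6.10 ± 1.60 in neutrophils. Of 757 ciliated cells 748 had a UMI of Ndufc2, of 4891 B cells 2387, and of 3315 neutrophils 161. Cox7a2l was high in classical monocytes, at 375 ± 17, and Cox4i1 reached 686 ± 26 there, its highest level. Apart from Cox8c, the members that varied least were Ndufa7, from 105 ± 4 in B cells to 211 ± 15 in ciliated cells, and Cox6a1, from 104 ± 8 in neutrophils to 229 ± 17 in classical monocytes.

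Promoter sequences are shown for 4 members from the ends of that range, since it is at the promoter that known regulators of these genes, such as the factor NRF1 and the ETS factor GABPA, bind. The windows hold the 250 bases before the start of the gene on its own strand (RefSeq, GRCm38.p6), with capitals for the core of the NRF1 site, GCGCATG or its reverse complement CATGCGC, and for the ETS core, CCGGAAG or its reverse complement CTTCCGG. Cox6a1 varied little between types, Ndufa11 and Ndufc2 were high in ciliated cells and low in neutrophils, and Ndufa4 was low in pericytes.
Cox6a1 (chr5:115348959-115349208, minus strand): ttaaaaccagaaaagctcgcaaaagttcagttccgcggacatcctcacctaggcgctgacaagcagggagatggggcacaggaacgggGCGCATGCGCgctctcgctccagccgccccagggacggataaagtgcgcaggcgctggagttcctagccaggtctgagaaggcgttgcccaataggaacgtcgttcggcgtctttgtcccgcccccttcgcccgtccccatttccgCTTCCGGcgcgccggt
Ndufa11 (chr17:56717512-56717761, plus strand): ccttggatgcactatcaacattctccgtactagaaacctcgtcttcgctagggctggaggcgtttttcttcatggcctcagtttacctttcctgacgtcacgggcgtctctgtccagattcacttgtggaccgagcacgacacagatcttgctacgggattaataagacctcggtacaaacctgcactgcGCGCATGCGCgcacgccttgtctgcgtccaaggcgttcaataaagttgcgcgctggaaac
Ndufc2 (chr7:97399753-97400002, plus strand): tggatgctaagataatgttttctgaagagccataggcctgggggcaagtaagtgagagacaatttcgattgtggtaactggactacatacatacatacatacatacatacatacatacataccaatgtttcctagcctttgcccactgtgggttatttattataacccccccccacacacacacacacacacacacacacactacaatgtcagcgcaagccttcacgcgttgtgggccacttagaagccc
Ndufa4 (chr6:11907451-11907700, minus strand): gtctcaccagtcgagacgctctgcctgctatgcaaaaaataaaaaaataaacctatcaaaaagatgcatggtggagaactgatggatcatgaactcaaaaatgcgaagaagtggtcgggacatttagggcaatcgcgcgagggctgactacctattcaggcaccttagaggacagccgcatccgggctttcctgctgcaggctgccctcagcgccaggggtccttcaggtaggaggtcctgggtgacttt

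The NRF1 core began 162 bases before the start in Cox6a1 and 60 bases before it in Ndufa11, a member of small and a member of large range. In both it overlapped its own reverse complement, so that the capitals run on. It was absent from the windows of Ndufc2 and Ndufa4. Of 63 nuclear member symbols with a window, 9 held it (14.3%), the others being Atp5g2, Atp5k, Atp5l, Cox5b, Ndufa6, Ndufa8 and Ndufb6, compared with 3.68% of all 27025 symbols. The ETS core on either strand was present in 11 members (17.5%) and in 7.83% of all symbols. The core of the hypoxia response element, ACGTG or its reverse complement CACGT, had no match in these 4 windows. It was present in 12 members (19.0%), Atp5g2 and Cox8b among them, and in 18.5% of all symbols. Of 79 nuclear member symbols, Cox4i1, Cox4i2, Cox6a2 and Ndufa4l2 were among those without a window, so these shares do not cover them. The NRF1 core was chosen after a longer form of the site had been searched in these windows. These matches are letters in a window, and no binding was measured.

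Among mitochondrial genes mt-Co1, the catalytic subunit of complex IV, was the most abundant, with 2961 to 3650 CPM in the 6 libraries. mt-Atp6, mt-Co3 and mt-Co2 followed, and mt-Nd6, the complex I subunit encoded on the other strand, was lowest at 14.9 to 16.8. Genes on the same transcript did not keep a fixed ratio between types. The complex I members made up 37.9 ± 0.7% of mitochondrial UMIs in ciliated cells and 22.9 ± 1.3% in neutrophils, and mt-Co1 made up 26.3 ± 1.5% in classical monocytes and 14.6 ± 0.7% in pericytes. Neighbouring genes also overlap: mt-Nd4l (chrM:9877-10173) shares 7 bases with mt-Nd4 and mt-Atp8 shares 43 with mt-Atp6, so reads of these pairs may be divided between them.

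In whole libraries, nuclear members summed to 8243, 7575 and 8011 CPM in the p16-DTR-labelled libraries and to 7390, 7820 and 7635 in the controls. The mean difference was 328, and the groups overlapped, since replicate 2 of the group labelled p16-DTR lay below 2 of the controls. Mitochondrial members summed to 16165, 14440 and 16870 against 13605, 14944 and 15046, a mean difference of 1293, and the same library fell among the controls. Without that library the differences were 512 and 1986. Without replicate 1 of the same group the nuclear difference was 178, without control replicate 1 it was 216, and without replicate 3 of the group labelled p16-DTR or without control replicate 1 the mitochondrial difference was 771 or 830.

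**Figure D4:**
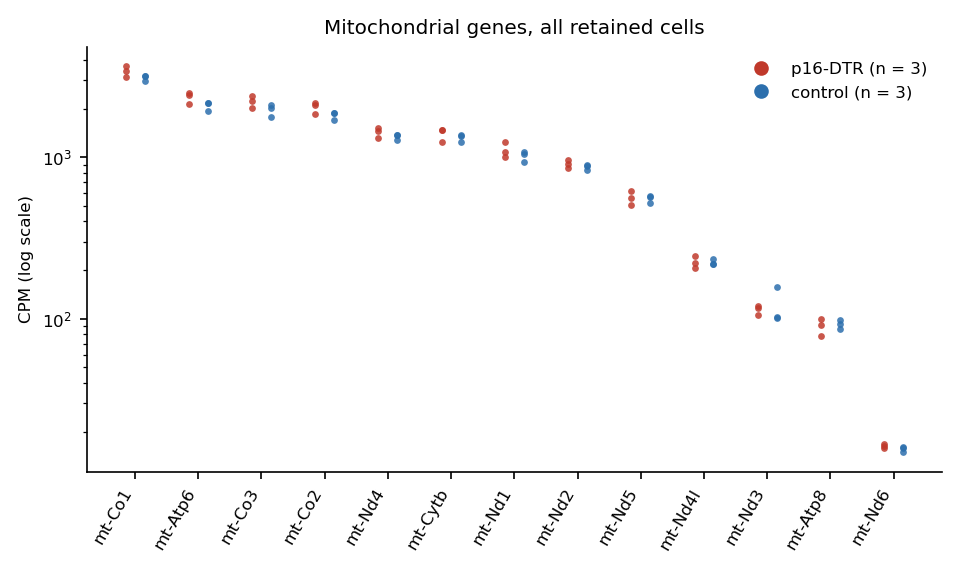
Level of each mitochondrial gene in all retained cells, as CPM on a log axis, 1 point per mouse, 3 labelled p16-DTR and 3 control. The groups overlap for all 13 genes, and 1 control library stands above the rest for mt-Nd3.

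No member passed the test between groups in whole libraries. edgeR called 0 of 79 nuclear and 0 of 13 mitochondrial members, where 0% of all 21391 genes were called. At an unadjusted p below 0.05 there were 19 nuclear members, 16 higher and 3 lower in the p16-DTR-labelled libraries, and 0 mitochondrial members, against 22.4% of all genes. The direction was shared more than the size: 69 nuclear members were higher, with a median log2 difference of 0.08, and 12 mitochondrial members were higher, with a median of 0.12, where the median of all genes was -0.02. Cell numbers differed too. Classical monocytes numbered 605, 471 and 551 in the p16-DTR-labelled libraries and 401, 425 and 348 in the controls. Alveolar fibroblasts numbered 3102, 2684 and 2236 against 5320, 2520 and 3386. Within types the nuclear difference ran from -413 CPM in nonclassical monocytes to 512 in CD4 T cells, with 35 in alveolar fibroblasts. The part of cell composition in the whole-library differences was not tested. The libraries labelled p16-DTR lay above all controls for 8 nuclear members and below them for 6, with a background of 8.6% above and 21.8% below, and the groups overlapped for all 13 mitochondrial members. DESeq2 called 6 nuclear and 0 mitochondrial members where it called 12.1% of all genes.

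Those 6 genes were the complex IV subunit Cox5a and the ATP synthase subunits Atp5e and Atp5l, higher, and Cox4i2, Ndufa4l2 and Cox7b2, lower; Cox5a, Atp5e, Atp5l and Cox7b2 were named after their values were seen. Atp5e, the epsilon subunit, had 216.3, 199.6 and 213.2 CPM in the p16-DTR-labelled libraries and 176.6, 192.9 and 187.8 in the controls (edgeR log2 0.22 ± 0.06 SE, adjusted p = 0.159). Cox5a had 112.8, 109.0 and 114.2 against 92.4, 102.4 and 104.2 (log2 0.21 ± 0.06, adjusted p = 0.158). Neither gene overlapped between the groups. Cox7b2 was near the limit of detection, at most 1.01 CPM in any library.

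Cox4i2 and Ndufa4l2 were lower in whole libraries and level within pericytes. Cox4i2 had 10.9, 9.61 and 11.1 CPM in the p16-DTR-labelled libraries and 13.2, 22.3 and 17.3 in the controls (log2 -0.69 ± 0.19, adjusted p = 0.156), and Ndufa4l2 had 6.35, 5.86 and 5.24 against 7.62, 11.2 and 9.94 (log2 -0.67 ± 0.15, adjusted p = 0.148). Pericytes made up 4.33, 4.44 and 4.72 of 1000 retained cells in the p16-DTR-labelled libraries and 6.65, 10.7 and 9.37 in the controls, and gated pericytes supplied 76.3% to 84.2% of all Cox4i2 UMIs and 65.1% to 81.5% of all Ndufa4l2 UMIs. Within pericytes the differences were -0.01 ± 0.11 for Cox4i2 (adjusted p = 0.988) and -0.06 ± 0.11 for Ndufa4l2 (adjusted p = 0.917). The median UMIs per gated pericyte were 18099 in the p16-DTR-labelled libraries and 16174 in the controls. The part of the pericyte share in the whole-library differences was not tested.

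Within the 18 gated types, edgeR called 0 of 1324 tests of nuclear members and 1 of 234 tests of mitochondrial members, where 0.745% of 214991 tests of all genes were called. An unadjusted p below 0.05 was found in 76 nuclear tests (5.74%), in 40 mitochondrial tests (17.1%) and in 13.9% of all tests. The libraries labelled p16-DTR lay above all controls in 102 nuclear tests and below in 45, and above in 26 mitochondrial tests and below in 6. These are 11.1% of nuclear and 13.7% of mitochondrial tests, against 19.5% of all tests. The share of all tests was 8.1% above and 11.4% below. DESeq2 called 3 nuclear and 9 mitochondrial tests, where it called 3.26% of all tests. The 3 nuclear calls were Atp5e, higher in B cells and general capillary endothelial cells, and Cox7b2, lower in alveolar fibroblasts. DESeq2 called 1.83%, 9.53% and 9.33% of all genes in those 3 types.

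The single call was mt-Nd4l, a membrane subunit of complex I, in CD4 T cells. It had 187.6, 188.4 and 193.3 CPM in the p16-DTR-labelled mice and 244.9, 223.5 and 223.6 in the controls. Every library of the first group lay below every control (log2 -0.32 ± 0.07 SE, adjusted p = 0.0366), where 4.38% of all genes were called in CD4 T cells. The adjusted p over all types together was 0.0971, and the call ended when any of the 6 libraries was left out, with an adjusted p between 0.0589 and 0.139. It also ended with library size alone (adjusted p = 0.0539), with predicted doublets kept (0.0752) and with the replicate number as a block (0.0740). Its overlapping neighbour mt-Nd4 had 1200, 1103 and 1136 against 1347, 1165 and 1196 (adjusted p = 0.381). In CD4 T cells 12 of 13 mitochondrial genes were lower in the p16-DTR-labelled mice, with a median of -0.15, and 6 had an unadjusted p below 0.05, as had 18% of all genes. DESeq2 also called mt-Nd4l there, with 5.69% of all genes.

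In most other types the mitochondrial genes lay the other way. Their median was above 0 in 14 of 18 types, and their mean sum was higher in the p16-DTR-labelled mice in 16 of 18. All types come from the same 6 mice, so counts over types, here and below, are not separate observations. The mitochondrial sum was highest in replicate 1 of the group labelled p16-DTR in 8 types and in its replicate 3 in 8. General capillary endothelial cells had all 13 higher in the p16-DTR-labelled mice, with a median log2 difference of 0.24 and 9 at an unadjusted p below 0.05, where 23.7% of all genes were. Alveolar fibroblasts had all 13 higher, with a median of 0.22 and 6 at that level (22.5% of all genes). Aerocytes, the gas-exchange capillary cells, had 12 higher, with a median of 0.16 and 5 (16.3%). No mitochondrial member passed the edgeR test in these types. In general capillary endothelial cells mt-Co1 had 2553, 2338 and 2689 CPM against 2103, 2315 and 2102, without overlap (log2 0.27 ± 0.08, adjusted p = 0.119). DESeq2 called mt-Atp6, mt-Co1, mt-Co2, mt-Co3 and mt-Nd2 in these cells, mt-Co2 and mt-Nd4 in alveolar fibroblasts and mt-Nd2 in aerocytes, where it called 2.57% of all genes, all higher. The share of cells over the 15% mitochondrial limit, given above, was also higher in the p16-DTR-labelled libraries. With those cells kept, the mean difference of the mitochondrial sum in whole libraries was 1450 CPM in place of 1293, and the counts of calls within types were the same, 0 nuclear and 1 mitochondrial.

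**Figure D5:**
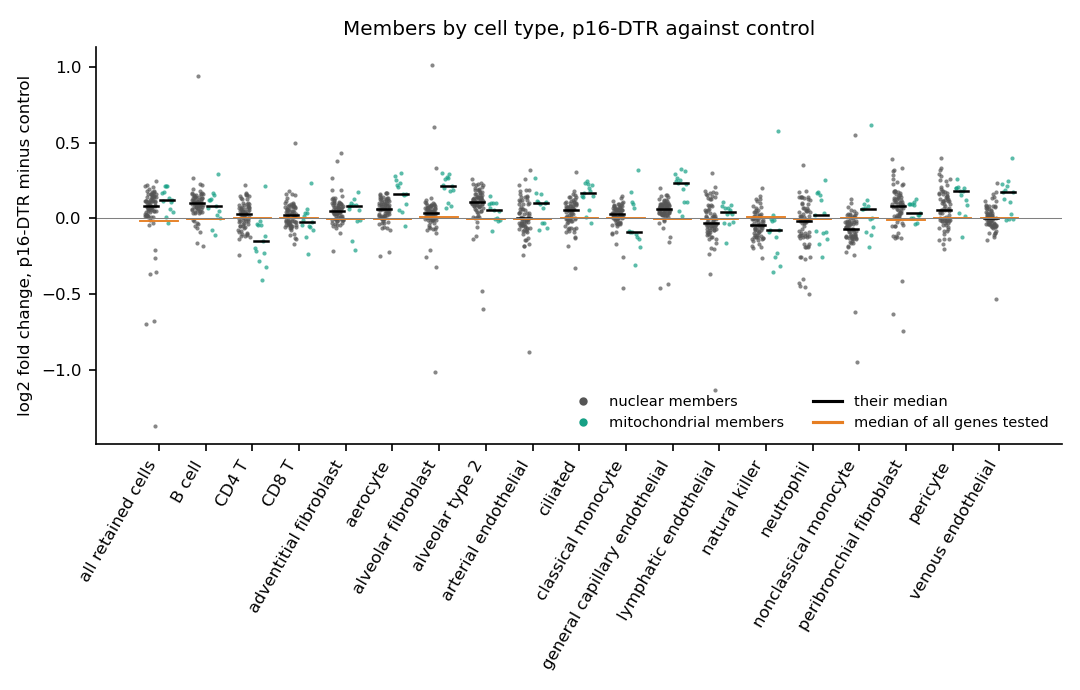
Log2 difference between the p16-DTR-labelled libraries and the controls (positive is higher in the former) for each nuclear (grey) and mitochondrial (green) member in all retained cells and in each cell type, with the median of each set (black bar) and of all genes tested (orange bar). Mitochondrial medians run from -0.15 in CD4 T cells to 0.24 in general capillary endothelial cells, and nuclear medians from -0.07 to 0.11.

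The median difference of the nuclear members was above 0 in 13 of 18 types and ran from -0.07 in nonclassical monocytes to 0.11 in alveolar type 2 cells, where 69 of 75 tested members were higher and 12 had an unadjusted p below 0.05 (11.5% of all genes). In B cells 65 of 74 were higher, with a median of 0.10 and 17 at an unadjusted p below 0.05 (12% of all genes). The nuclear sum did not overlap between groups in B cells alone, with 7687, 7711 and 7932 CPM in the p16-DTR-labelled mice and 7584, 7434 and 7286 in the controls. The mitochondrial sum did not overlap in venous endothelial cells alone, with 16817, 14842 and 17117 against 14481, 14699 and 14750. Each is 1 type of 18, and single genes did not overlap between groups in 19.5% of all tests within types. With predicted doublets kept no type was apart in the mitochondrial sum, and with the mean over cells in place of summed UMIs 3 were. Replicate 2 of the group labelled p16-DTR had the lowest mitochondrial sum of all 6 libraries in 8 of 18 types, and control replicate 1 in 6. For the nuclear sum that p16-DTR-labelled library was lowest in 8 types and control replicate 3 in 7. Without replicate 2 of the group labelled p16-DTR, 12 types were apart for the mitochondrial sum and 6 for the nuclear sum, all with the p16-DTR-labelled libraries above. Leaving out a library with low sums favours such a gap, so nothing is concluded from these 2 counts. Without control replicate 2 the counts were 4 and 3, and without replicate 3 of the group labelled p16-DTR 2 and 2. In that last setting 1 of the 2 types apart for the mitochondrial sum, natural killer cells, had the p16-DTR-labelled libraries below. Without control replicate 1 or control replicate 3 the mitochondrial count was 2.

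The ratio of mitochondrial to nuclear UMIs, a measure chosen after the data were seen and given as a description, kept the groups apart in 4 types. It was higher in the p16-DTR-labelled mice in venous endothelial cells (2.16, 2.15 and 2.30 against 1.94, 1.93 and 2.03), alveolar fibroblasts (2.13, 2.10 and 2.19 against 1.77, 1.89 and 1.88) and general capillary endothelial cells (2.14, 2.00 and 2.20 against 1.80, 1.96 and 1.84). It was lower in CD4 T cells, with 1.77, 1.71 and 1.72 against 1.93, 1.77 and 1.94, where the nearest libraries of the groups both round to 1.77. Single genes did not overlap between groups in 19.5% of all tests within types.

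Whether a member's difference in a cell type departed from its mean difference in the other types was tested as an interaction. The SE and p of this test rest on the spread over the sums of all 18 types, not of 1 type. Adjustment was over all genes within each type and not over all types together. Of 307332 such tests over all genes 0.619% were called. The 78 nuclear and 13 mitochondrial members, each tested in 18 types, gave 3 calls, a smaller share. In neutrophils 1.15% of all genes were called, in peribronchial fibroblasts 2.76% and in CD4 T cells 3.43%. Cox7a2l in neutrophils had 115.7, 102.8 and 123.8 CPM in the p16-DTR-labelled mice and 82.6, 99.8 and 88.6 in the controls, an effect 0.43 ± 0.09 above that in the other types on the log2 scale (adjusted p = 0.00355). Atp5g1 in peribronchial fibroblasts had 101.2, 104.1 and 109.3 against 89.2, 83.1 and 86.3 (0.31 ± 0.09, adjusted p = 0.0292), and in CD4 T cells 99.0, 93.8 and 93.5 against 112.4, 116.8 and 100.4 (-0.27 ± 0.08, adjusted p = 0.0355). The groups did not overlap in these 3 cases, and none passed its own test within the type (adjusted p = 0.523, 0.130 and 0.154). In peribronchial fibroblasts Atp5g1 supplied 29.1%, 32.8% and 30.5% of Atp5g UMIs against 27.2%, 26.8% and 27.8%. Without replicate 3 of the group labelled p16-DTR 1 call was left, and without control replicate 1 there were 7.

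The 12 lists of other genes, some of them signs of sample quality or of other cells, gave no call in whole libraries (edgeR). That holds for every gene, since 0% of all 21391 genes were called. The counts at an unadjusted p below 0.05 are read beside 22.4% of all genes at that level. All 6 genes of complex II, cytochrome c and Cyc1, a complex III subunit that the symbol rule left out, were higher in the p16-DTR-labelled libraries. Their median was 0.09, and 1 had an unadjusted p below 0.05, Cycs (cytochrome c), at 0.21 ± 0.05 (edgeR adjusted p = 0.152). Assembly factors had 27 of 42 higher with 7 at an unadjusted p below 0.05, mitochondrial ribosomal proteins 61 of 78 with 21, and tricarboxylic acid cycle enzymes 6 of 13 with 4. Glycolysis genes had 16 of 21 higher, with a median of 0.16 and 8 at an unadjusted p below 0.05, Pgk1 and Gapdh among them at 0.26 ± 0.06 and 0.30 ± 0.08. Hypoxia response genes had 13 of 14 higher, with a median of 0.15 and 5. Cytosolic ribosomal proteins had 94 of 102 higher, with a median of 0.20 and 29. Dissociation stress genes had 8 of 17 higher, with a median of -0.14 and 5, and 1 of 5 nuclear-retained RNAs was higher. Haemoglobin genes, a sign of red cells, had 3 of 4 higher and 0 at an unadjusted p below 0.05.

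Of the regulators of mitochondrial biogenesis, 8 of 15 were higher, with a median of 0.00 and 2 at an unadjusted p below 0.05. Ppargc1a, the coactivator of that programme, had 6.05, 6.42 and 6.37 CPM in the p16-DTR-labelled libraries and 8.91, 14.6 and 11.4 in the controls (log2 -0.84 ± 0.17, adjusted p = 0.148). Its highest level was in ciliated cells, 221.7 CPM, where it did not pass the edgeR test (log2 -0.67, adjusted p = 0.350). Those cells numbered 109, 120 and 81 of 13842, 14185 and 14407 retained cells in the p16-DTR-labelled libraries. In the controls they numbered 131, 160 and 156 of 15790, 12363 and 15150. The part of their number in the whole-library difference was not tested. In peribronchial fibroblasts Ppargc1a fell from 38.7, 28.0 and 29.9 in the controls to 14.0, 6.94 and 13.1 in the p16-DTR-labelled mice (edgeR log2 -1.45 ± 0.24, adjusted p = 0.0188). In that type 2.39% of all genes were called, and the nuclear members had a median of 0.08. The transcription factors Nrf1, Gabpa and Tfam differed by 0.02, 0.01 and 0.00 on the log2 scale in whole libraries. Genes of mitochondrial genome expression and copying had 14 of 24 higher, with a median of 0.01 and 2 at an unadjusted p below 0.05. Their summed level ran the other way, with 442.8, 444.8 and 446.1 CPM in the p16-DTR-labelled libraries, all below the 467.9, 459.4 and 479.1 of the controls, and Polg2, a subunit of the mitochondrial DNA polymerase, had a log2 difference of -0.54 ± 0.11 (adjusted p = 0.148). Over the gated types, 3 of 233 tests of regulators and 3 of 400 tests of mitochondrial genome expression genes were called, all lower in the p16-DTR-labelled mice, beside 0.745% of all tests. Hypoxia response genes had 5 higher and 1 lower in 208 tests and dissociation stress genes 2 higher and 14 lower in 301. The only other calls were lower, 1 of 730 for assembly factors, 1 of 307 for glycolysis and 3 of 1738 for cytosolic ribosomal proteins.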

How the data were processed

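Single-cell RNA libraries of 6 mouse lungs (Chromium GEM-X 3′ v4, per the labels' protocols) were deposited as UMI counts per gene and cell barcode. The authors made these counts with Cell Ranger 8.0.1 on mm10, per the submitters' processing notes. Whether strand was used in counting is not given in the sources used here.

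Cells with at least 300 genes and 500 UMIs and at most 15% mitochondrial UMIs were kept. Cells with 3 pan markers of each of 2 lineages (5.08% to 6.48% per library) were left out as doublets. A cell was gated by at least 3 of 8 markers. Deposited counts were summed per library, and per library and type, scaled to 1000000 UMIs (CPM) for levels, and tested with edgeR 4.0.16 (quasi-likelihood, TMM factors, filterByExpr, Benjamini-Hochberg over all genes tested, threshold 0.05), with DESeq2 1.42.0 as an alternative, in R 4.3.3. Type comparisons kept the library as a block. Sums, ratios and figures were made with Python 3.11.15, numpy 2.4.6, pandas 2.3.3, scipy 1.17.1 and matplotlib 3.10.9. Gene positions are from GENCODE M21 (GRCm38), where all 93 members were found. The fits were tested on simulated data.

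The members and gene lists were chosen with earlier results of these data known. Genes were named by rule: all mitochondrial members, members of the Cox4i, Cox6a, Cox6b, Cox7a, Cox8, Ndufa4 and Atp5g families, members called in whole libraries or in at least 2 types, the 10 nuclear members of largest and the 3 of smallest range over types, up to 3 genes per other list by adjusted p, Ppargc1a, Nrf1, Gabpa, Tfam and Cdkn2a. Atp5k, Cox5b, Ndufa6, Ndufa8 and Ndufb6 are outside that rule and were named for the NRF1 core in their promoter windows. Other genes outside it are said to be named after their values were seen, also Ndufa9 and others marked in figures. The labels do not say whether the mice shared a litter or a day of processing.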

Additional observations from a re-analysis of the deposited data

Results flagged for a closer look

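The difference between p16-DTR-labelled libraries and controls departed from its mean in the other 17 cell types, by an interaction test (edgeR), in 3 cases among the members. Cox7a2l, kept with complex IV by its name, departed by 0.43 (log2) in neutrophils, where it had 114 ± 11 CPM in the p16-DTR-labelled mice and 90.3 ± 8.8 in the controls (SD, n = 3 each, all 3 above all 3). Atp5g1, a c subunit gene of the ATP synthase, departed by 0.31 in peribronchial fibroblasts (105 ± 4 against 86.2 ± 3.0, all 3 above all 3) and by -0.27 in CD4 T cells (95.4 ± 3.1 against 110 ± 8, all 3 below all 3). The 78 nuclear and 13 mitochondrial members were each tested in 18 types. Among all genes 0.619% of such tests were called, a larger share than among the members. None of the 3 cases passed its own edgeR test within the type (adjusted p = 0.523, 0.130 and 0.154). With libraries left out in turn the calls ran from 1 to 7.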

How the results depend on the processing

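Over the alternative settings run, 104 values of summary results stayed on their side of the threshold or within the replicate spread, 11 moved beyond it, 10 fell and 5 rose across it, and none of these changed sign. Those values hold the total of calls between cell types and not its split: with library size alone the majority of nuclear members turned from lower to higher over all types together and in lymphatic endothelial cells, peribronchial fibroblasts and aerocytes. In neutrophils the differences of several nuclear members, Cox4i1 and Ndufa7 among them, changed sign. DESeq2 called 6 nuclear members in whole libraries, 3 nuclear and 9 mitochondrial tests in gated types, where edgeR called 0, 0 and 1. The mitochondrial count of 1 became 5 with no filter on low counts, and 0 with library size alone, with predicted doublets kept and with adjustment over all types together. With libraries left out in turn it ran from 0 to 1, the interaction calls from 1 to 7, the types apart in the nuclear sum from 1 to 6, the types apart in the mitochondrial sum from 1 to 12, the whole-library nuclear difference from 178 to 512 and the mitochondrial difference from 771 to 1986 CPM. With doublets kept 2 types were apart in the nuclear sum and 0 in the mitochondrial sum, and with the mean over cells in place of summed UMIs 3 were apart in the mitochondrial sum; the causes were not tested. With the replicate number as a block the mitochondrial count was 0, and nuclear counts stayed at 0. The numbers were not taken to pair mice, since the labels do not say that they do. Same-numbered libraries correlated in their deviations at 0.15, -0.01 and 0.13, and the other combinations at -0.18 to 0.06. Replicate 2 of the group labelled p16-DTR correlated best with control replicate 3. These values do not decide whether the numbers pair mice. The smallest tested gate, pericytes, had 60 cells in its smallest library, which limits what could be detected there.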

Other observations

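mt-Nd3, a complex I subunit gene of the mitochondrial genome, was highest in control replicate 2 in 16 of 18 cell types, with a median ratio of 1.38 to the mean of the other 5 libraries and a range from 0.98 to 1.53. In all retained cells it had 156.8 CPM in that library and 101.2 to 120.0 in the others.

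In neutrophils the glycolysis list had a median of 1.89 (log2, against the other types, TMM scaling), where all genes had -0.53 and the nuclear members -0.43, while mitochondrial ribosomal proteins had -1.97 and tricarboxylic acid cycle enzymes -1.20. Classical monocytes had medians of 1.56 for glycolysis, 0.66 for mitochondrial ribosomal proteins and 0.35 for the cycle, beside 0.90 for the nuclear members and -0.13 for all genes. The same medians in alveolar type 2 cells were 0.07, 0.24 and 0.31, beside 0.63 for the nuclear members, 0.90 for the hypoxia response list and -0.10 for all genes.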
